A study of Mus musculus with 6 samples.

Results

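The 8 genes followed here encode ion channels, a water channel and gap junction or related channel proteins, and were measured in mouse articular cartilage, the load-bearing tissue that covers joint surfaces. They are Trpv4, Piezo1, Piezo2, Pkd1, Pkd2, Aqp1, Gja1 and Panx3. They were chosen by name, with earlier results of these data known, and all 8 were found among the 33971 genes of the deposited table. The study compared wildtype (WT) mice at 2 months, here called young, with wildtype mice at 18 months, here called aged, to ask how expression in articular cartilage changes with age. Each age had 3 RNA-seq libraries. Genotype and age were the labelled conditions, no treatment was given in the labels, and the strain was not stated there. The study's methods describe male mice. The labels do not say whether the libraries of an age came from separate animals or from pools, so p-values measure the spread between these libraries, which may be technical.

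Chondrocytes, the resident cells of cartilage, are embedded in a stiff, water-rich matrix and sense compression, stretch and osmotic change when a joint is loaded. Trpv4 encodes a calcium-permeable cation channel that responds to osmotic and mechanical stimuli, and Piezo1 and Piezo2 encode channels opened directly by membrane tension. Pkd1 and Pkd2 encode polycystin-1, a large membrane protein, and polycystin-2, a cation channel, which form a complex at the primary cilium. Aqp1 encodes a water channel that is abundant in red blood cells and in endothelium as well as being described in chondrocytes. Gja1 encodes connexin 43, the main gap junction protein of bone cells, and Panx3 encodes pannexin 3, a channel of prehypertrophic chondrocytes and osteoblasts that passes ATP.

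In the GRCm38 build of the mouse genome, the positions deposited for all 8 genes were those of the GENCODE M21 annotation. Trpv4 (ENSMUSG00000014158) lies on chr5:114622152-114658421 on the minus strand and Pkd2 (ENSMUSG00000034462) on chr5:104459450-104505819 on the plus strand. Piezo1 (ENSMUSG00000014444) is at chr8:122481698-122551329, minus strand, and Piezo2 is ENSMUSG00000041482, also on the minus strand. Pkd1 (ENSMUSG00000032855) occupies chr17:24549834-24596508 and Aqp1 (ENSMUSG00000004655) chr6:55336432-55348555, both on the plus strand. Gja1 (ENSMUSG00000050953) is at chr10:56377330-56402513, plus strand, and Panx3 (ENSMUSG00000011118) at chr9:37659902-37669235, minus strand. The main coding transcripts range from 2 exons in Gja1, which encodes 382 residues, to 54 exons in Piezo2, which encodes 2824 residues. The longest is that of Pkd1, with 14164 bases in 46 exons.

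The 250 bases before the RefSeq start of 6 of the 8 genes were matched in GRCm38.p6. Those of 4 genes are shown because they stand for the different age patterns: Trpv4 and Pkd2 were lower in aged cartilage, Aqp1 was higher, and Gja1 was not called. Each is written 5′ to 3′ on the strand of its gene, and capitals mark a match to 1 of 5 searched motifs on either strand. The Pkd2 sequence is chr5:104459207-104459456 (plus strand), that of Trpv4 chr5:114658422-114658671 (minus strand), that of Aqp1 chr6:55336049-55336298 (plus strand) and that of Gja1 chr10:56377050-56377299 (plus strand).
Trpv4: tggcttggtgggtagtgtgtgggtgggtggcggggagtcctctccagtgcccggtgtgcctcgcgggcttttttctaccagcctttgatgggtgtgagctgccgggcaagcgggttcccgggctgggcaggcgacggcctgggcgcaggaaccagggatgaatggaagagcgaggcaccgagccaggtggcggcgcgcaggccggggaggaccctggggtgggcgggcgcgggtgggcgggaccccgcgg
Pkd2: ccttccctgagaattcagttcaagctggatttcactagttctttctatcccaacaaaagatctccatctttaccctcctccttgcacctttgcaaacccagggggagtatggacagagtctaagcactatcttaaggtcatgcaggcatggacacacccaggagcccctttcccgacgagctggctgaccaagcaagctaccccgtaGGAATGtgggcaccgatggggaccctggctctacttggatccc
Aqp1: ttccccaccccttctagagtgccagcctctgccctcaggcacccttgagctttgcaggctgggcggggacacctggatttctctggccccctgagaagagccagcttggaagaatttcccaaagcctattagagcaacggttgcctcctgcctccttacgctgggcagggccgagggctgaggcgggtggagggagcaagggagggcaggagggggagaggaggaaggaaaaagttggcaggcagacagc
Gja1: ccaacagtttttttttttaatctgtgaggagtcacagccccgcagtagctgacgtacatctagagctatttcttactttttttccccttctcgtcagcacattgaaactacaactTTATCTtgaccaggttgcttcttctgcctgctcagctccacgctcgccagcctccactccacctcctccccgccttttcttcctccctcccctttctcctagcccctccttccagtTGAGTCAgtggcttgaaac
The Pkd2 sequence held GGAATG, a core of TEAD sites, at positions -43 to -38 from the start, and 12.6% of all 32851 RefSeq promoters of this length held it on either strand. In the Gja1 sequence the AP-1 motif TGANTCA, found in 6.75% of promoters, matched at -19 to -13. The GATA core AGATAA, found in 9.99%, matched on its opposite strand at -135 to -130. Neither the SOX core ACAAT (27.7% of promoters) nor the RUNX core ACCACA (14.05%) was found in any of the 6 matched genes. The motifs do not overlap one another in these sequences. In base composition, Trpv4 (72.0% G or C, 22 CpG) and Piezo1 (74.0%, 26 CpG) were the richest of the 6, followed by Pkd1 (67.2%), Aqp1 (62.0%), Pkd2 (52.8%) and Gja1 (50.0%). A match is a description of the letters and does not show that a factor is bound.

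Library totals were 48171507 to 51683577 counts in young and 55201357 to 59085179 in aged cartilage. Calls rest on edgeR's quasi-likelihood test, adjusted after Benjamini and Hochberg, and need both an adjusted p under 0.05 and a log2 fold change past 1 in size. Of 20397 genes tested, 36.3% were called, 14.9% higher and 21.3% lower in aged cartilage. All 16 chondrocyte markers were lower, with a summed level of 14956 to 18566 FPKM (fragments per kilobase of exon, scaled to library size) in the young libraries and 362 to 1727 FPKM in the aged ones. Erythroid markers summed to 288 to 7391 FPKM in young and 29975 to 39730 in aged libraries, and 3 of 11 were called higher. Neutrophil markers summed to 8.98 to 3683 FPKM in young and 42450 to 47386 in aged libraries, with 0 of 12 called by edgeR, 2 of 12 at an unadjusted p under 0.05 and 10 of 12 called higher by DESeq2. The second young library stood apart, with 13.7 times the erythroid and 110.0 times the neutrophil marker sum of the mean of the other young libraries. Xist was at 88239 to 102417 counts in young and 11 to 30 in aged libraries, and Ddx3y at 0 to 10 and 4333 to 4839 counts, so the libraries differed in sex transcripts as well as in age, although the methods name male mice. Effects of sex and age cannot be told apart, and in bulk tissue fewer cells of a type and less RNA per cell cannot be told apart either.

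All 8 genes passed the filter on low counts, and 7 of them were called, against 36.3% of all genes tested. Trpv4, Piezo1, Piezo2, Pkd1, Pkd2 and Panx3 were lower in aged cartilage, Aqp1 was higher and Gja1 was not called. The median log2 fold change over the 8 genes was -3.00, beside -0.02 over all genes tested. Because the 8 genes were chosen with earlier results of these data known, these contrasts with all genes are descriptions only. The libraries of the ages did not overlap for 7 genes, against 68.6% of all genes tested. Of these, 6 were lower, against 34.6% of all genes, and 1 was higher, against 33.9%. Without the second young library the calls were again 6 lower and 1 higher, beside 4576 lower and 5007 higher of all 21489 genes tested. Without the first aged library they were 6 lower and 0 higher, because Aqp1 was then not called. Of all 21536 genes tested in that fit, 4363 were lower and 2408 higher.

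**Figure D1:**
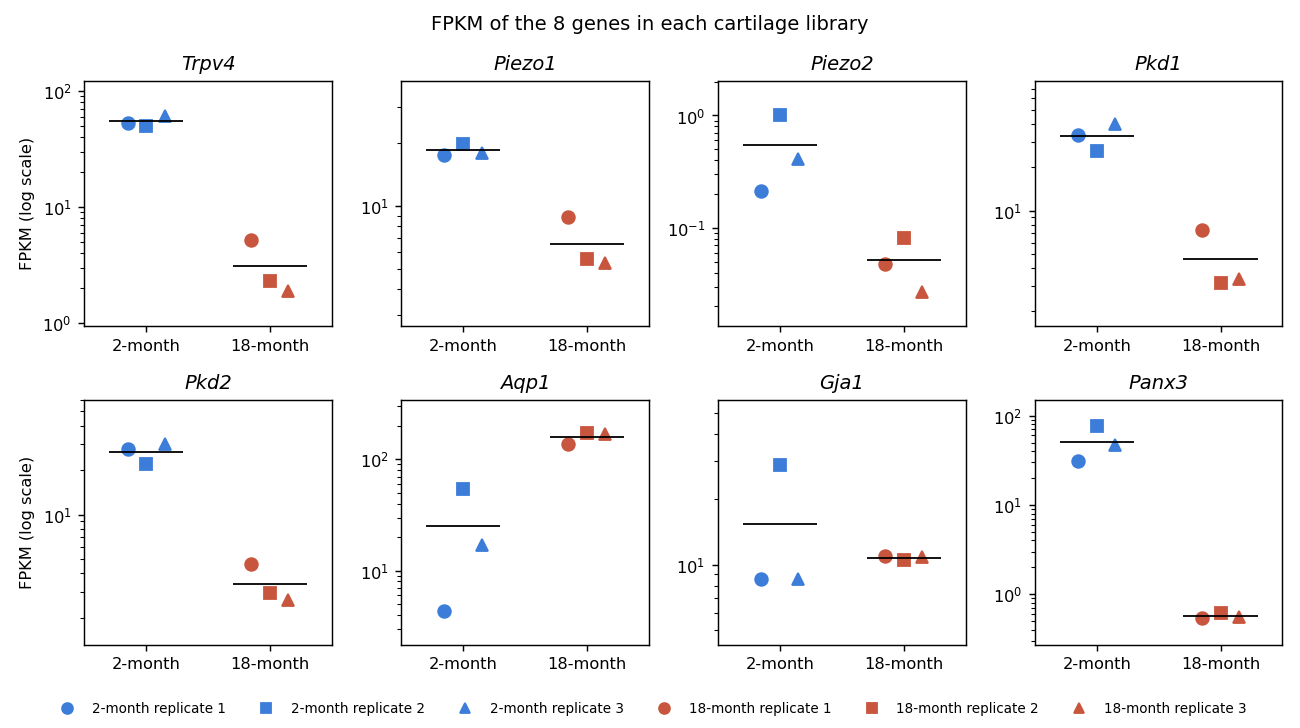
FPKM of each of the 8 genes in the 3 young (blue) and 3 aged (red) cartilage libraries, on log axes with their own range in each panel; symbols give the replicate number and horizontal lines the group mean. Trpv4, Piezo1, Piezo2, Pkd1, Pkd2 and Panx3 lie lower in all 3 aged libraries, Aqp1 lies higher, and the aged Gja1 values, with a mean of 10.8 FPKM, lie between the young ones.

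Of the 5 genes for Trpv4, Piezo and polycystin proteins, Trpv4 had the highest young mean FPKM and the largest fall. Trpv4 was at 53.2, 50.1 and 61.1 FPKM in the young libraries and at 5.16, 2.29 and 1.88 FPKM in the aged ones. The young libraries lay close together, the first aged library was the highest of its group, and the ages did not overlap. The lowest young value was 9.70 times the highest aged value. The mean fell from 54.8 ± 5.68 to 3.11 ± 1.79 FPKM (SD, n = 3 each). The log2 fold change was -4.23 (SE 0.44, 95% interval -5.31 to -3.15, adjusted p = 0.0017 by edgeR's quasi-likelihood test), or 18.8-fold lower. Among genes with a value above 0, Trpv4 moved from the 97.5th to 97.9th percentile of its library to the 56.5th to 69.3rd.

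Piezo1 showed the smallest fall of the 6 genes called lower. Its values were 17.6, 19.9 and 17.9 FPKM in young cartilage and 8.88, 5.57 and 5.31 FPKM in aged cartilage. The young libraries were nearly level, and each aged library was below all of them, with the first aged library again the highest of its group. The mean went from 18.5 ± 1.26 to 6.58 ± 1.99 FPKM (SD, n = 3 each), with a log2 fold change of -1.57 (SE 0.21, 95% interval -2.09 to -1.06, adjusted p = 0.0028 by edgeR), or 2.97-fold lower. Piezo1 shares 2441 bases with Ctu2 on the opposite strand, and whether counting used the strand was not given in the sources used here. Ctu2 had 474 to 602 counts in young and 919 to 1076 in aged libraries, beside 9630 to 11596 and 3364 to 5929 for Piezo1.

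Piezo2, the other tension-gated channel, best known from sensory neurons, was the least abundant of the 8 genes in every library. It was at 0.213, 1.01 and 0.409 FPKM in young cartilage, from 202, 1023 and 396 counts, and at 0.0475, 0.0806 and 0.0267 FPKM in aged cartilage, from 55, 88 and 30 counts. The second young library was the highest, and the young libraries spread more widely than those of Trpv4 or Piezo1, but the ages did not overlap. The means were 0.545 ± 0.417 and 0.0516 ± 0.0272 FPKM (SD, n = 3 each), and the log2 fold change was -3.43 (SE 0.71, 95% interval -5.17 to -1.69, adjusted p = 0.0104 by edgeR), or 10.8-fold lower. In limma on log2(FPKM + 1), which compresses low values, the difference was -0.52 and was not called (adjusted p = 0.0516). Of the peripheral neuron and Schwann cell markers, 3 of 7 tested were lower and 1 higher, against 21.3% and 14.9% of all genes tested. The sum of these markers was 51.2 to 95.0 FPKM in young and 18.4 to 23.3 FPKM in aged libraries. That sum is mostly Pmp22, and without it the sums were 3.25 to 6.39 FPKM in young and 10.1 to 12.5 FPKM in aged libraries. Their part in the Piezo2 difference was not tested.

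Both polycystin genes fell. Pkd1 was at 33.6, 26.1 and 39.6 FPKM in young and at 7.38, 3.17 and 3.36 FPKM in aged cartilage. Its partner Pkd2 was at 28.0, 21.9 and 30.1 FPKM in young and at 4.60, 2.93 and 2.63 FPKM in aged cartilage. For both genes the second young library was the lowest of its group and the first aged library the highest of its group, and the ages did not overlap.

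Pkd1 went from a mean of 33.1 ± 6.78 to 4.64 ± 2.38 FPKM (SD, n = 3 each), a log2 fold change of -2.93 (SE 0.41, 95% interval -3.94 to -1.92, adjusted p = 0.0032 by edgeR), or 7.64-fold lower. Pkd2 went from 26.6 ± 4.27 to 3.39 ± 1.06 FPKM (SD, n = 3 each), a log2 fold change of -3.07 (SE 0.28, 95% interval -3.76 to -2.38, adjusted p = 0.0013 by edgeR), or 8.38-fold lower. Pkd1 overlaps Tsc2 on the opposite strand by 693 bases. Tsc2 had 3681 to 4297 counts in young and 2796 to 3692 in aged libraries, against 26568 to 38721 and 3474 to 8644 for Pkd1, so the overlap is a larger share of what could have been counted in the aged libraries.

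Aqp1 was the gene of the 8 that rose. It was at 4.34, 54.5 and 17.1 FPKM in young and at 137, 172 and 170.0 FPKM in aged cartilage. The young libraries differed widely, with the second the highest, while the aged libraries were close together and all above the young ones. The lowest aged value was 2.51 times the highest young value. The mean went from 25.3 ± 26.1 to 159.6 ± 19.9 FPKM (SD, n = 3 each), with a log2 fold change of 2.63 (SE 0.84, 95% interval 0.56 to 4.70, adjusted p = 0.0432 by edgeR), or 6.20-fold higher. The call was lost without the third young library (log2 fold change 2.44, adjusted p = 0.130), without the first aged library (2.75, adjusted p = 0.0823), without the second (2.57, adjusted p = 0.101), without the third (2.58, adjusted p = 0.1002) and with no filter on low counts (2.64, adjusted p = 0.0611).

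The libraries ranked in the same order by Aqp1 and by the summed erythroid markers, from the first young library at 288 FPKM of erythroid markers through the third at 788 and the second at 7391 to the aged libraries at 29975, 39368 and 39730. The summed neutrophil markers gave that same order of libraries, at 8.98, 58.0, 3683, 42450, 46678 and 47386 FPKM, so it is not particular to erythroid markers. None of the 11 erythroid markers was at or under 3 counts throughout an age, and the median log2 fold change of the list was 3.70. Endothelial markers summed to 3.02, 72.4 and 10.2 FPKM in the young libraries and to 56.9, 59.8 and 60.9 FPKM in the aged ones. Of this list 1 of 12 was called higher, against 14.9% of all genes tested. By this list, unlike by Aqp1, the second young library was above the aged ones. The part of any of these cell types in the Aqp1 difference was not tested.

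Gja1 was not called, and its young libraries disagreed. It was at 8.61, 29.0 and 8.54 FPKM in young and at 11.001, 10.5 and 10.8 FPKM in aged cartilage. The aged libraries were almost level and lay between the second young library, which was high, and the other young libraries, so the ages overlapped. The means were 15.4 ± 11.8 and 10.8 ± 0.270 FPKM (SD, n = 3 each), and the log2 fold change was -0.55 (SE 0.47, 95% interval -1.72 to 0.61, adjusted p = 0.360 by edgeR). Without the second young library the sign turned, to a log2 fold change of 0.23 (adjusted p = 0.0626 by edgeR). The interval leaves room for a fall as large as that of Piezo1. Osteoblast and osteocyte markers summed to 4226, 7369 and 3840 FPKM in the young and 2565, 2261 and 2234 FPKM in the aged libraries. Of these markers 5 of 12 were lower in aged cartilage, against 21.3% of all genes tested. Their sum was highest in the library where Gja1 was highest. Erythroid, endothelial and neutrophil marker sums of that library were 13.7, 10.9 and 110.0 times the mean of the other young libraries. Its high sum is thus not particular to bone cell markers. The part of any of these cell types in the Gja1 values was not tested.

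Panx3 had the largest fall of the 8 genes. It was at 31.1, 75.8 and 46.7 FPKM in young and at 0.545, 0.615 and 0.550 FPKM in aged cartilage, the latter from 127, 134 and 122 counts. The second young library was the highest, the aged libraries were almost equal, and the ages were far apart. The lowest young value was 50.6 times the highest aged value. The mean went from 51.2 ± 22.7 to 0.570 ± 0.0389 FPKM (SD, n = 3 each), with a log2 fold change of -6.53 (SE 0.37, 95% interval -7.44 to -5.62, adjusted p = 0.00075 by edgeR), or 92.4-fold lower. Panx3 moved from the 95.6th to 98.5th percentile of its library to the 38.6th to 43.1st.

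**Figure D2:**
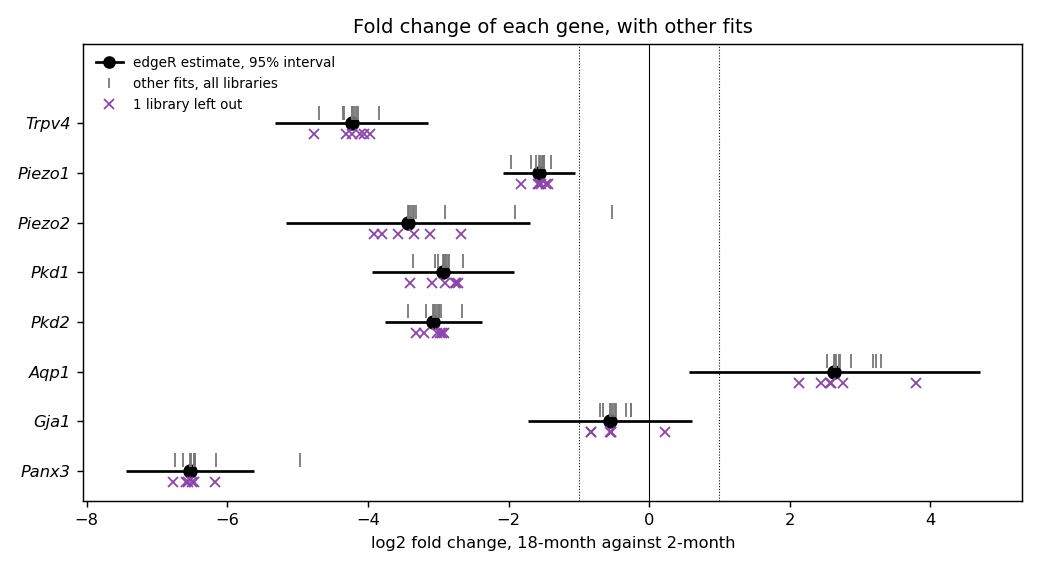
Log2 fold change of each gene in aged against young cartilage: black points and lines are the edgeR estimate and its 95% interval, grey ticks other tools, scalings and filters on all 6 libraries, and purple crosses fits with 1 library left out; dotted lines mark the limit of 1 in either direction. The intervals of 7 genes exclude 0, and the Gja1 cross at 0.23 is the fit without the second young library.

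The genes differed in which libraries stood out. In the first aged library Trpv4 was 2.47 times, Pkd1 2.26 times, Pkd2 1.65 times and Piezo1 1.63 times the mean of the other aged libraries. The chondrocyte marker sum of that library was 4.74 times theirs, and 3.54 times without Prg4. Panx3 (0.937 times), Piezo2 (0.886 times) and Aqp1 (0.799 times) were not raised there, and Gja1 was at 1.03 times. In the second young library Aqp1 was 5.08 times, Gja1 3.38 times, Piezo2 3.26 times and Panx3 1.95 times the mean of the other young libraries, whereas Trpv4 (0.876 times), Pkd2 (0.753 times) and Pkd1 (0.713 times) were lower and Piezo1 was at 1.12 times. That library had 1.83 times the osteoblast and osteocyte marker sum of the other young libraries. Its erythroid, endothelial and neutrophil marker sums were 13.7, 10.9 and 110.0 times theirs. Its chondrocyte marker sum was 0.852 times theirs with Prg4, the lubricin gene, and 1.10 times theirs without it. The 8 genes thus fell into those raised with the chondrocyte markers of the first aged library and those raised in the second young library, with no gene raised by over 1.5 times in both.

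**Figure D3:**
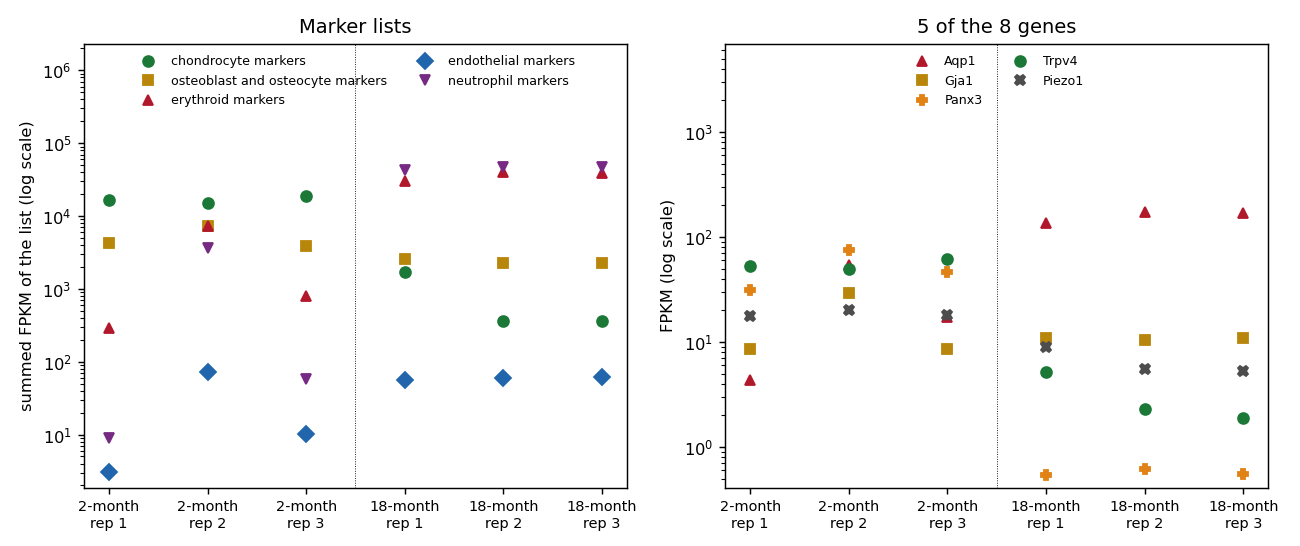
Left, summed FPKM of 5 cell type marker lists in each library; right, FPKM of 5 of the genes in the same libraries, both on log axes. The second young library has 7391 FPKM of erythroid markers and the highest young values of Aqp1, Gja1 and Panx3, and the first aged library has 1727 FPKM of chondrocyte markers and the highest aged value of Trpv4.

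The order of the genes by FPKM differed between ages. In the first and the third young libraries Trpv4 was first, in the second Panx3 was first, and Piezo2 was last in all 3. In every aged library Aqp1 was first, followed by Gja1, Piezo1 and Pkd1, with Panx3 and Piezo2 last. Aqp1 made up 2.46%, 19.6% and 7.74% of the summed FPKM of the 8 genes in the young libraries and 78.4%, 87.3% and 87.4% in the aged ones. In aged cartilage the means of the neighbours Pkd1 and Pkd2 (4.64 ± 2.38 and 3.39 ± 1.06 FPKM) lay within the spread between libraries. Within each aged library, however, Pkd1 was above Pkd2 by FPKM. The means of Pkd2 and Trpv4 (3.39 ± 1.06 and 3.11 ± 1.79) also lay within that spread. Trpv4 was above Pkd2 in the first aged library and below it in the others.

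The length behind the FPKM values was close to the union of all annotated exons, at 1.13 to 1.17 times it for Trpv4, and not to the main transcript. For Gja1 that union is 10257 bases against 3182 in the main transcript, so its FPKM is low relative to counts per kilobase of the main transcript. On that second scale, corrected for library total, Gja1 was at 31.6, 105.7 and 32.1 in young and at 40.4, 38.4 and 39.8 in aged cartilage. Trpv4 was at 76.3, 71.6 and 89.9 in young and at 7.43, 3.30 and 2.73 in aged cartilage on the same scale. Gja1 remained behind Aqp1 and ahead of the other 6 genes in all 3 aged libraries by this measure. Fold changes between ages do not depend on the length used.

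Ratios within a library compare the genes without the scaling of the library. Ranges below are of plain FPKM ratios, and differences between ages are on the scale of log2(FPKM + 0.1). Pkd1 to Pkd2 was 1.19 to 1.32 in young and 1.08 to 1.61 in aged cartilage, a difference of 0.07 (exact two-sided permutation p = 0.8), whose direction depended on 1 library. Which of the pair is higher depends on the length used, since per kilobase of the main transcript the ratio was 0.753 to 0.831 in young and 0.682 to 1.01 in aged cartilage. Piezo1 to Piezo2 was 82.8, 19.7 and 43.8 in the young and 186.8, 69.1 and 198.6 in the aged libraries, so the ages overlapped. For this pair the added 0.1 exceeds every aged Piezo2 value, and the difference was 0.39 with it (exact permutation p = 0.6), 1.46 with 0.01 in its place (p = 0.2) and 1.72 with none (p = 0.2). Trpv4 to Piezo1 was 2.51 to 3.41 in young and 0.355 to 0.582 in aged cartilage, a difference of -2.71. Panx3 to Gja1 was 2.62 to 5.47 in young and 0.0496 to 0.0587 in aged cartilage, a difference of -5.91. For these last ratios the ages did not overlap, and the exact permutation p was 0.1, the smallest that 3 against 3 libraries allow (Benjamini-Hochberg adjusted 0.133 over 12 ratios, including those to the chondrocyte markers).

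Set against the 16 chondrocyte markers of the same library, 7 of the genes lay higher in all aged than in all young libraries, as did 99.7% of the 20397 genes tested, so the count is not particular to them. The mean log2(FPKM + 0.1) of those markers was 8.85 ± 0.27 in young and 1.96 ± 1.07 in aged libraries (SD, n = 3 each). Trpv4 lay 3.07 ± 0.28 below that mean in young and 0.42 ± 0.35 below it in aged cartilage, a difference of 2.66. Differences were 3.92 for Pkd2, 3.99 for Pkd1, 4.98 for Piezo2, 5.37 for Piezo1, 6.63 for Gja1 and 10.2 for Aqp1. The ages did not overlap for these 7 genes (exact two-sided permutation p = 0.1 each, the smallest possible). Panx3 lay 3.26 ± 0.44 below the marker mean in young and 2.54 ± 1.12 below it in aged cartilage, a difference of 0.72 within the spread of the libraries (exact permutation p = 0.4), beside a median difference of 6.96 over all genes tested. Panx3 minus the marker mean was -3.58, -2.76 and -3.44 in young and -3.83, -1.86 and -1.93 in aged libraries. The overlap thus rests on the first aged library. Without it the difference was 1.36 (exact permutation p = 0.1). The markers themselves fell by a median of 6.50 on the log2 scale.

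**Figure D4:**
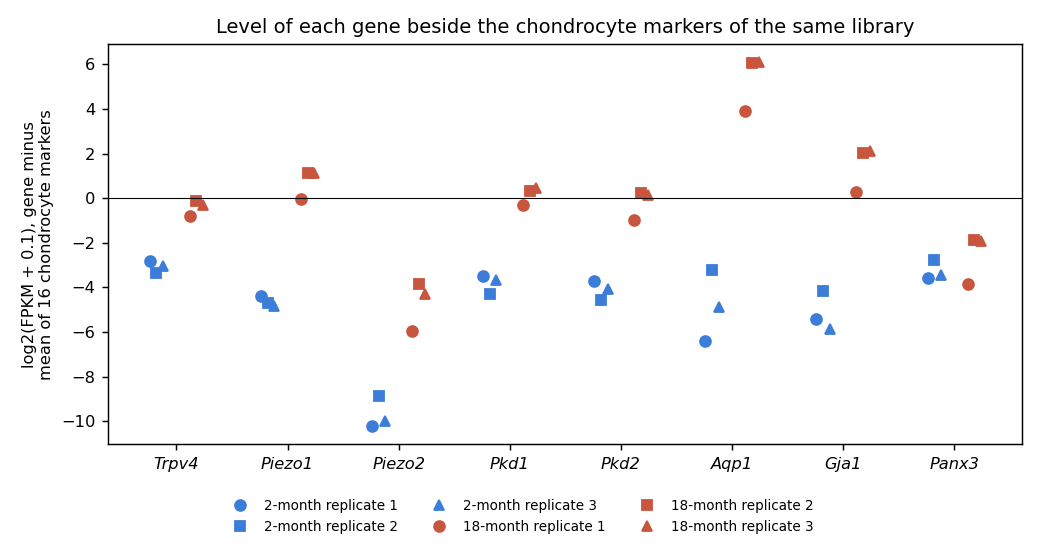
Log2(FPKM + 0.1) of each gene minus the mean of 16 chondrocyte markers in the same library, for 3 young (blue) and 3 aged (red) libraries; 0 marks a level equal to the marker mean. The young and aged points are apart for 7 genes, by 10.2 for Aqp1, and overlap for Panx3.

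By FPKM, Aqp1 was first of its family, and Pkd1 first and Pkd2 second of theirs, in all 6 libraries, whereas the ranks of Trpv4, Panx3 and Gja1 changed. Trpv4 was first of the TRP channel list in young cartilage and 4th or 6th in aged cartilage. Panx3 went from first to 4th of its list, and Gja1 was 2nd among connexins in 2 of 3 young libraries and first in the other 4 libraries. Trpv4 made up 58.5% to 68.3% of the summed FPKM of the TRP channel list in young and 4.92% to 12.5% in aged cartilage. Panx3 made up 85.5% to 92.7% of the pannexins and CALHM channels in young and 6.07% to 7.36% in aged cartilage. Gja1 was 23.4%, 53.1% and 20.7% of the connexin list in the young libraries and 71.2% to 78.7% in the aged ones, and Aqp1 was 92.3% to 98.3% and 95.0% to 96.1% of the aquaporin list. Pkd1 and Pkd2 together held most of the polycystin list in all libraries, with Pkd1 at 51.1% to 54.3% in young and 29.0% to 46.9% in aged cartilage.

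The other family members gave the setting of these shares. Of 7 further connexins tested, 4 were lower and 0 higher, with a median log2 fold change of -1.65. Over all genes tested, 21.3% were lower and 14.9% higher. Gjc3 went from 25.2, 17.3 and 29.0 FPKM to 1.13, 0.334 and 0.259 FPKM (log2 fold change -5.47, SE 0.70). Its FPKM was above that of Gja1 in the first and the third young libraries and below it in the other 4. Gjb6 had 158, 497 and 210 counts in young and 0 in every aged library, at least 108-fold lower against a floor of 3 counts. Gjc1 was called lower (-1.65, SE 0.48), though not in 7 of 15 other settings. Of 5 further pannexins and CALHM channels, 2 were lower, including Panx2 (log2 fold change -5.40, SE 1.23), and 1 was higher, Calhm6 (2.61, SE 0.49). Of 3 further aquaporins tested, 0 were called by edgeR and 0 had an unadjusted p under 0.05, while limma on log2(FPKM + 0.1) called 2 of 3 higher and DESeq2, which tested 7, called 1 higher and 2 lower.

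Among 16 further TRP channels tested, 6 were lower and 1 higher, against 21.3% and 14.9% of all genes tested. Trpm3 (log2 fold change -5.58, SE 0.74) and Mcoln2 (-2.85, SE 0.25) were among those lower. Trpm6 (-2.36, SE 0.79) was at the limit, with an adjusted p of 0.0498 by edgeR, and was called in only 7 of 15 other settings. Without the second young library 5 TRP channels were higher and 6 lower, of 17 tested, beside 5007 and 4576 of all 21489 genes tested. Of 4 further polycystin family genes, Pkd1l3 was higher (log2 fold change 3.32, SE 0.30), from 0.138 to 0.177 FPKM in young to 1.19 to 1.99 FPKM in aged cartilage, and 3 were not called. Among 17 other stretch- and volume-gated channels 6 were lower and 4 higher, against 21.3% and 14.9% of all genes tested. The potassium channels Kcnma1 (-4.29, SE 0.50), Kcnk5 (-3.04, SE 0.54) and Kcnk2 (-2.61, SE 0.25) fell, while the epithelial sodium channel subunit Scnn1a (3.32, SE 0.52) and the volume-regulated anion channel subunits Lrrc8b (1.88, SE 0.47) and Lrrc8d (1.81, SE 0.22) rose.

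Of 10 partners of these channels, 5 were lower and 1 higher. Mdfi, an inhibitor of myogenic factors that also binds Piezo channels, went from 45.8, 34.7 and 40.8 FPKM to 3.06, 3.09 and 2.95 FPKM (log2 fold change -3.82, SE 0.17). Pacsin3, which binds Trpv4, fell by 3.37 on the log2 scale (SE 0.39), and Tjp1, a scaffold that binds connexin 43, fell by 1.87 (SE 0.11). Stom, the membrane protein stomatin that is abundant in red blood cells, rose from 11.4, 20.4 and 10.003 FPKM to 86.2, 99.0 and 99.3 FPKM (log2 fold change 2.71, SE 0.27). As for Aqp1, the second young library was the highest of its group. Over the 10 related lists, 127 genes other than the 8 were tested, of which 48 were lower and 21 higher, against 21.3% and 14.9% of all genes tested. Without the second young library 51 were lower and 36 higher, of 134 tested, beside 4576 lower and 5007 higher of all 21489 genes tested.

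The genes whose pattern over the 6 libraries was most like each of the 8 were found by the root mean square difference of centred log2(FPKM + 0.1) among 14017 genes. Nearest to Trpv4 were Kcnma1 (0.084), Has2 (0.119) and Hapln3 (0.148). Nearest to Piezo1 were Scd1 (0.057), Cbx6 (0.067) and Trim32 (0.071), and to Piezo2, less closely, Gxylt2 (0.231), Sh3pxd2a (0.258) and Bmp7 (0.272). Those of Pkd2 were Efs (0.038), Prnp (0.049) and 1700029J07Rik (0.074), and those of Pkd1 were Hoxaas2 (0.101), Ppfibp1 (0.102) and Mb21d2 (0.104). Each polycystin was also close to the other, at a distance of 0.173, with 0.200% of genes nearer to Pkd1 than Pkd2 was and 0.321% nearer to Pkd2 than Pkd1 was. Aqp1 was nearest to Ifi207 (0.086), Ms4a4d (0.158) and Ccr3 (0.173), and Gja1 to Steap4 (0.078), Adcy3 (0.114) and Pcdh18 (0.131). Panx3 was nearest to R3hdml (0.229), Fxyd2 (0.285) and Prkg2 (0.417). These distances describe 6 libraries and share the difference between ages.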

How the data were processed

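RNA was measured in 6 cartilage libraries, 3 at 2 months and 3 at 18 months, grouped by the labels. Per the labels, poly(A) RNA was made into dUTP strand-marked libraries with molecular identifiers. The submitters' processing notes name cutadapt 1.9, HISAT2 2.0.4, UMI-tools, StringTie 1.3.4d, DESeq2 and edgeR without their roles; build and annotation are not given in the sources used here. Counts per gene and library were deposited as whole numbers, not normalized. The authors also deposited FPKM values, scaled by gene length and library size, which were used for levels and ratios.

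The quasi-likelihood test of edgeR 4.0.16 in R 4.3.3 was applied to the counts after filterByExpr and TMM scaling, with no replicate block. Adjusted p-values follow Benjamini and Hochberg across the 20397 genes tested. Standard errors are the log2 fold change over the square root of F, and intervals use the t distribution with the moderated degrees of freedom. Ratios used log2(FPKM + 0.1) and exact permutation tests. Alternatives used DESeq2 1.42.0, limma 3.58.1, other scalings and filters, and each library left out. All 6 libraries were kept, and 0 columns of values per library were left out. The 8 genes and all lists were chosen with earlier results of these data known. All 8 genes were named. In each related list up to 3 called genes each way with the largest changes and a mean FPKM of at least 0.5 were named, and for each of the 8 the 3 nearest in pattern with a mean FPKM of at least 1. Gene positions were compared with GENCODE M21, and promoters were read from RefSeq (GRCm38.p6). Tested on simulated counts of 19660 genes for this comparison, edgeR recovered 65 of 93 genes changed by 4 on the log2 scale and 26 of 94 changed by 2, with 6 false calls among 19473 unchanged genes. The simulation changed a much smaller share of genes than the 36.3% called in the real libraries, so these rates may not carry over. Library totals were 48171507 to 59085179 counts.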

Additional observations from a re-analysis of the deposited data

How the results depend on the processing

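The falls of Trpv4, Piezo1, Pkd1, Pkd2 and Panx3 kept their direction and their call in all 16 alternatives each. That of Piezo2 did so in 14 of 15, the exception being limma on log2(FPKM + 1), where it was -0.52 (adjusted p = 0.0516); it had no value under a mean FPKM of at least 1. Aqp1 was past the threshold in 11 of 16, its log2 fold change was 2.64 with no filter on low counts, where it was not called, and ranged from 2.14 to 3.79 with 1 library left out. Gja1 ranged from -0.82 to 0.23 with 1 library left out. The log2 ratio of Piezo1 to Piezo2 differed between ages by -0.87 with log2(FPKM + 1), 1.46 with log2(FPKM + 0.01), 1.72 with no pseudocount and 0.77 by counts per kilobase of the main transcript, in place of 0.39, and by -0.047 to 0.78 with 1 library left out, and that of Pkd1 to Pkd2 by -0.080 to 0.20. Ratios by counts per kilobase of the main transcript and with no pseudocount were added after seeing the data. The count of called genes, 7401 in all, was 5097 to 9594 over the alternatives on all libraries, and 5640 to 9583 with 1 library left out. By adjusted p alone, with no limit on fold change, it was 10457. The share of calls that were higher was 41.2%, but 52.2% without the second young library, 50.6% in limma on log2(FPKM + 0.1) and 57.8% on log2(FPKM + 1). It was 34.8% in limma on TPM, 35.6% without the first aged library, 36.5% without the second and 36.2% without the third. Scaling FPKM to TPM moved the median of all genes to -0.33. With the replicate number as a replicate block, 6032 genes were called and each of the 8 genes kept its side of the threshold (Aqp1 3.23, adjusted p = 0.0397). The numbers did not pair the libraries, with correlations of deviations of 0.034, 0.044 and -0.024. With 3 libraries an age, no exact test of a single ratio can reach p below 0.1.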

Other observations

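The remaining lists around these channels were described in the same way. Of 21 primary cilium genes tested, the organelle where the polycystins act, 15 were lower and 1 higher in aged cartilage, with a median log2 fold change of -1.85, against 21.3% lower and 14.9% higher over all genes. Evc2, a cilium protein of hedgehog signalling, went from 9.96, 6.80 and 8.15 FPKM to 2.01, 0.710 and 0.771 FPKM (log2 fold change -2.93, SE 0.47). Tulp3, a carrier of receptors and polycystins into the cilium, fell by 2.88 (SE 0.15) and the motor Dync2h1 by 2.74 (SE 0.20). Ift140, of the retrograde transport complex, rose by 1.66 (SE 0.28). Without the second young library 16 were lower and 1 higher, beside 4576 and 5007 of all 21489 genes tested.

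Over all genes tested, 14.9% were higher and 21.3% lower. Of 23 genes of ATP release and purinergic signalling other than Panx3 and Gja1, 9 were higher and 4 lower. Those higher included the receptors P2rx1 (log2 fold change 5.47, SE 1.34), P2ry12 (4.38, SE 0.71) and Adora2a (3.81, SE 0.90), each with the second young library the highest of its group. The receptor P2rx6 fell by 3.81 on the log2 scale (SE 0.45). Enpp1, which makes pyrophosphate from ATP, went from 68.7, 53.5 and 59.4 FPKM to 12.6, 4.31 and 4.52 FPKM (-3.18, SE 0.48), and Nt5e, which makes adenosine, from 39.9, 19.1 and 31.9 to 8.08, 2.09 and 2.08 FPKM (-3.00, SE 0.67). Of 22 genes of calcium entry, 6 were lower and 3 higher, against 21.3% and 14.9% of all genes tested. Atp2a3, a calcium pump of blood cell lineages, went from 0.472, 12.4 and 0.770 FPKM to 73.4, 80.8 and 81.2 FPKM (4.11, SE 1.32), a call lost in 6 of 16 other settings. The store-operated channels Orai1 (1.29, SE 0.20) and Orai2 (2.29, SE 0.53) rose, and the inositol trisphosphate receptors Itpr2 (-1.28, SE 0.18) and Itpr3 (-2.59, SE 0.34) and the calcium channel subunit Cacna2d1 (-1.99, SE 0.14) fell. Without the second young library 6 calcium entry genes were lower and 7 higher, beside 4576 and 5007 of all 21489 genes tested. Neutrophil and monocyte or macrophage marker sums were also higher in aged cartilage, at 42450 to 47386 and 3933 to 5224 FPKM against 8.98 to 3683 and 15.4 to 660.1 FPKM, and their part in these differences was not tested.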
